A study of Mus musculus with 8 samples.

Results

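The Z-disc is the protein plate that anchors the actin filaments of neighbouring sarcomeres, and it bears the load of every contraction. Filamin C, the Xin proteins and their partners gather where this plate is strained or torn. The chaperone adaptor BAG3 directs damaged filamin to autophagy, and LIM-domain and ankyrin-repeat proteins at the Z-disc and on titin are known as sensors of stretch. The 10 genes described here were taken by symbol from a table of 48328 Ensembl genes and comprise the Xin genes Xirp1 and Xirp2, filamin C (Flnc), its partners Igfn1 and Ky, the adaptors Sorbs2 and Csrp3, Bag3, and the ankyrin-repeat genes Ankrd1 and Ankrd2. Xirp1, Flnc, Sorbs2 and Ky were chosen by their measured FPKM, because of a difference between the genotypes in these same libraries, so their genotype values are given as a description without a test. The other 6 were not chosen in that way and were read from a fit over all genes.

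RNA was sequenced from a fast muscle of the shin, the tibialis anterior, of C57BL/6J mice aged 24 months. The 4 K320E-skm mice express a mutant form of the mitochondrial DNA helicase Twinkle in skeletal muscle, and 4 mice were wild-type. The labels do not name the promoter that restricts the mutant protein to muscle, do not say whether wild-type mice carried a transgene or a Cre allele, and do not say whether mice were littermates. The p-values therefore reflect spread among these libraries alone. In each genotype 2 libraries were labelled male (K320E-skm 1 and 4, wild-type 1 and 3) and 2 female (K320E-skm 2 and 3, wild-type 2 and 4). Each library was made from 20 to 30 mg of the distal portion of the muscle.

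The values are FPKM, fragments per kilobase of transcript scaled to the mapped fragments of the library, deposited by the authors. They allow levels of genes to be set side by side only roughly, because annotation, strand setting and bias correction are not given. Per library they summed to 731824 to 858029, and 10167 to 11581 genes reached 1 FPKM. A large part of each sum was the mitochondrial ribosomal RNA mt-Rnr2. It was at 227876 to 291021 FPKM in K320E-skm libraries and 195008 to 238653 FPKM in wild-type libraries. Its part in the scale of the other values was not tested. The table holds no counts and the absolute depth is unknown. Among very low values, the most frequent ratio between libraries gave relative depths of 1 in K320E-skm 4 to 1.3 in wild-type 3. The tissue label was borne out by skeletal muscle markers, with a summed level of Ckm, Mb, Myh1, Mylpf and Tnnt3 of 20275 to 23849 FPKM in K320E-skm libraries and 24884 to 25935 FPKM in wild-type libraries. The library K320E-skm 4 stood against its sex label. Its Xist level was 10.2 FPKM, where the other male-labelled libraries had at most 0.0226 FPKM and the female-labelled ones 8.82 to 15.0 FPKM, and its level of the Y-linked gene Ddx3y was 0.0117 FPKM against 14.3 to 21.6 FPKM in the other male-labelled libraries. It was kept as labelled, the main comparison of genotypes had no sex term, and comparisons of sex labels are given with and without this library. If its sex is read from these transcripts, the main comparison was not balanced for sex.

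Mean levels differed widely within the group. In both genotypes Xirp2 had the highest mean, with 206 ± 96.4 FPKM for K320E-skm libraries and 203 ± 61.3 FPKM for wild-type libraries (SD, n = 4 each), above Flnc at 89.9 ± 23.5 and 57.5 ± 10.4 FPKM. Igfn1 had the lowest mean, with 2.30 ± 1.52 FPKM for K320E-skm libraries and 2.71 ± 2.89 FPKM for wild-type libraries. In each genotype Xirp2 lay above Flnc, and Igfn1 below the gene ranked next to it, in all 4 libraries without overlap. The 7 genes between were close together. In wild-type muscle Ankrd1, Ankrd2, Csrp3, Ky, Sorbs2, Bag3 and Xirp1 followed each other from a mean of 29.5 to 13.7 FPKM, and each overlapped the next. In K320E-skm muscle the order was Ankrd1, Ankrd2, Csrp3, Xirp1, Bag3, Sorbs2 and Ky, from 53.8 to 8.96 FPKM, and Bag3 lay above Sorbs2 without overlap while the other neighbours overlapped.

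**Figure D1:**
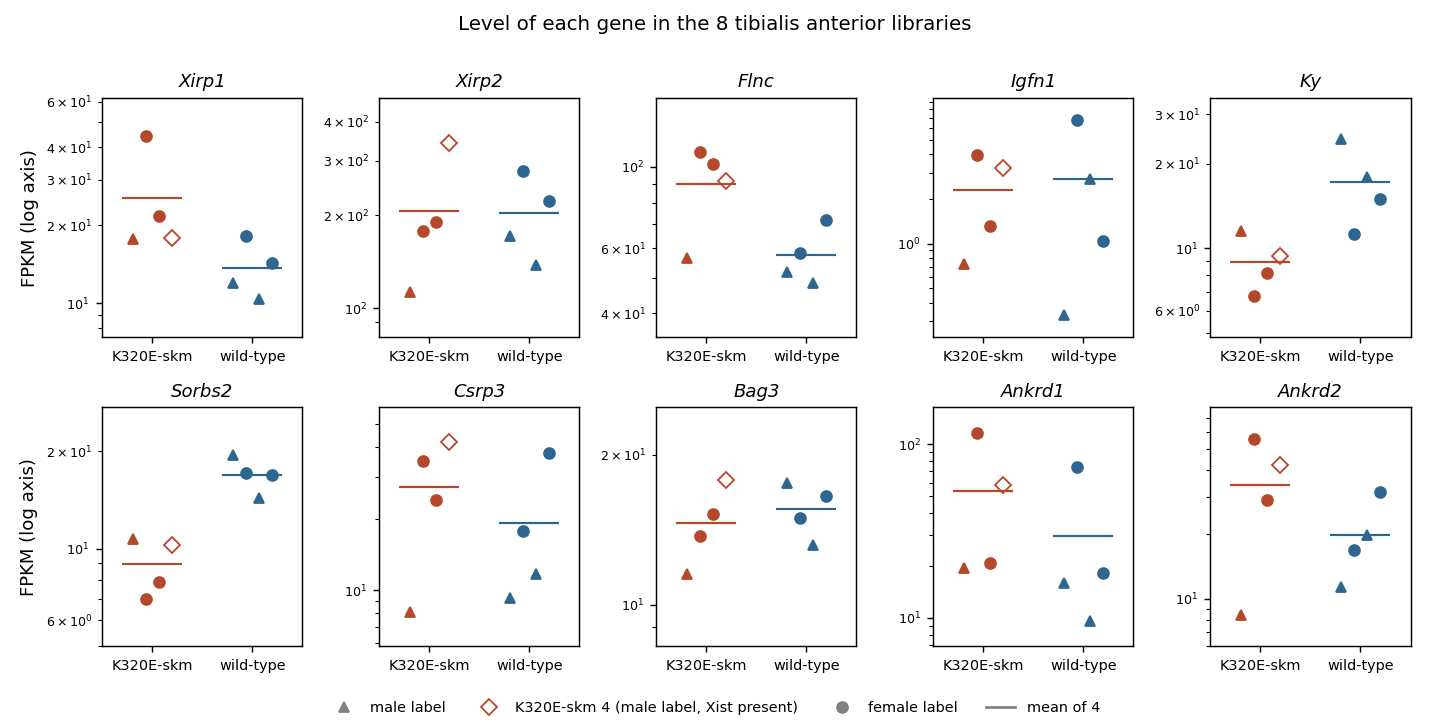
FPKM (log axis) of the 10 genes in the 4 K320E-skm libraries (left) and 4 wild-type libraries (right), with triangles for the male label, circles for the female label, an open diamond for K320E-skm 4 and lines for the mean of 4. Sorbs2 is the gene whose genotypes do not overlap, and in Csrp3, Xirp2 and Flnc the triangles lie below all circles.

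Within a genotype these genes varied more between mice than most. The standard deviation within genotype, on the scale of log2(FPKM + 1), had a median of 0.21 over 10521 tested genes, those with at least 1 FPKM in at least 4 of the 8 libraries. All 10 members passed this filter. The deviation was 1.22 for Ankrd1, 0.93 for Igfn1, 0.92 for Csrp3 and 0.91 for Ankrd2, larger than that of 98.4% or more of the tested genes in each case. It was 0.55 for Xirp2 and 0.48 for Xirp1, and close to the median for Sorbs2 at 0.22 and Bag3 at 0.21. Ankrd1 thus spanned 12.2-fold over the 8 libraries and Bag3 1.54-fold. The widest span in FPKM was that of the low gene Igfn1, at 20.7-fold.

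Promoters are shown for 4 members whose levels varied between libraries or were chosen for their difference. RefSeq (GRCm38.p6) listed 13 promoters of 300 bases, 250 before and 50 after the start site, for 9 of the 10 members. Xirp1 had none there, and Flnc and Csrp3 had more than the promoter shown. Capitals mark 5 motifs that were searched on both strands: the M-CAT element of TEAD factors (CATTCC), the heat shock element (GAANNTTC), the TATA box (TATAAA), the MEF2 site and the CArG box of serum response factor. Ankrd1 (chr19:36119795-36120094, minus strand, from a start site 255 bases inside the GENCODE gene) holds M-CAT letters starting 210 and 123 bases before the start site, the second sharing a base with heat shock letters that start 118 bases before it. Flnc (chr6:29433006-29433305, plus strand) holds M-CAT letters starting 104 bases before the start site. Xirp2 (chr2:67445752-67446051, plus strand) holds a MEF2 site starting 74 bases before it. Csrp3 (chr7:48848002-48848301, minus strand) holds none of the 5 motifs in this window. Another Csrp3 promoter, not shown, has a start site 4362 bases inside the GENCODE gene. It holds heat shock letters starting 10 bases before that site.
Ankrd1: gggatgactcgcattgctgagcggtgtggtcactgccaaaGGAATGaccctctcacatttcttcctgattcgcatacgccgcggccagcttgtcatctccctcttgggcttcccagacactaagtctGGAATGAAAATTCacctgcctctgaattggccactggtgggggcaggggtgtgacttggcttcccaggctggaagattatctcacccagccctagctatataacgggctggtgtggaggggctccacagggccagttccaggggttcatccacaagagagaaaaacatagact
Flnc: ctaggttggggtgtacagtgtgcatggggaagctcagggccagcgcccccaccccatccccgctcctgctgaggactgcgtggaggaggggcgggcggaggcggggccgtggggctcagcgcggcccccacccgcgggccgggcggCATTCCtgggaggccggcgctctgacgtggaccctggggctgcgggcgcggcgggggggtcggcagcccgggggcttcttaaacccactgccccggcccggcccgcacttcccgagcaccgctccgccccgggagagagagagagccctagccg
Xirp2: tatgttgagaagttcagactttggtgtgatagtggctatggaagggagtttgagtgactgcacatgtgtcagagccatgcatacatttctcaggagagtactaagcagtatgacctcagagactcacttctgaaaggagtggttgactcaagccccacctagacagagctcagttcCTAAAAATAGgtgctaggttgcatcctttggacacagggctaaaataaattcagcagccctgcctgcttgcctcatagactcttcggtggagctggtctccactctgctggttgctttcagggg
Csrp3: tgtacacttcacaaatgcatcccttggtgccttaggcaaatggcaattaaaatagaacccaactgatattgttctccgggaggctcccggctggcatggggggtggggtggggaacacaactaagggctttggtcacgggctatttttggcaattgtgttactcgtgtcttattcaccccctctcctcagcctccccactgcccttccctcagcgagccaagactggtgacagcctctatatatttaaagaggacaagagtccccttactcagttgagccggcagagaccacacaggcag
Over all 32851 promoters of the table, 14.7% hold M-CAT letters, 7.86% the heat shock element, 13.6% the TATA box, 3.19% a MEF2 site and 1.63% a CArG box. The E-box (CANNTG) was searched too but is not marked, and 72.3% of all promoters hold its letters. A match is a description of the letters and was not tested for binding.

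The first comparison was that of K320E-skm with wild-type mice. Tested genes had a median log2 fold change of −0.14, which median-ratio rescaling of the libraries brought to 0.00. Relative to that median the log2 fold changes were 0.91 for Xirp1, 0.75 for Flnc, −0.70 for Ky, −0.72 for Sorbs2, 1.04 for Ankrd1, 0.70 for Ankrd2, 0.61 for Csrp3, 0.17 for Igfn1, 0.10 for Xirp2 and 0.05 for Bag3. Limma called 2 of 10521 genes past an adjusted p of 0.05, 1 higher and 1 lower (0.0095% each way and 0.019% of those tested), and none of the 10 members was among them. Without any adjustment 1.07% of tested genes were higher and 13.6% lower at p under 0.05, and after rescaling 5.19% were higher and 4.6% lower. The genotypes did not overlap for 0.333% of genes on the higher side and for 9.59% on the lower side.

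Of the Xin proteins, which bind actin and filamin C and collect at sites of myofibre damage, Xirp1 (chromosome 9, 120013755 to 120023598, GRCm38) was chosen for a higher level in K320E-skm muscle. In K320E-skm libraries 1 to 4 Xirp1 was at 17.8, 44.3, 21.7 and 17.9 FPKM, against 12.0, 18.2, 10.4 and 14.3 FPKM in wild-type libraries 1 to 4. Xirp1 averaged 25.4 ± 12.7 FPKM in the 4 K320E-skm libraries and 13.7 ± 3.42 FPKM in the 4 wild-type ones (SD), a log2 fold change of 0.77 (SE 0.28). The genotypes overlapped only through wild-type 2, which lay above K320E-skm 1 and 4, and K320E-skm 2 stood far above the rest. Without K320E-skm 2 the log2 fold change of Xirp1 was 0.47. Its relative Xirp2 (chromosome 2, 67446002 to 67526614), an actin-binding protein of the same repeat family, was at 113, 178, 190 and 341 FPKM in K320E-skm libraries 1 to 4, against 172, 278, 138 and 223 FPKM in wild-type libraries 1 to 4. The genotypes overlapped almost throughout, and both the lowest and the highest library were K320E-skm. The log2 fold change of Xirp2 was −0.04 (SE 0.32, 95% interval −0.76 to 0.68, limma adjusted p = 0.956). Exons of Xirp2 overlap those of Gm13601 on the opposite strand, which was at 10.7 to 31.9 FPKM in K320E-skm libraries and 13.9 to 23.2 FPKM in wild-type libraries, and the strand setting of the counting is not given in the sources used here.

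Filamin C, the muscle filamin that cross-links actin at the Z-disc, is encoded by Flnc (chromosome 6, 29433256 to 29461883) and was chosen for a higher level. In K320E-skm libraries 1 to 4 Flnc was at 56.5, 110, 102 and 91.8 FPKM, against 51.7, 58.4, 48.2 and 71.8 FPKM in wild-type libraries 1 to 4. K320E-skm 2, 3 and 4 lay above every wild-type library, while K320E-skm 1 lay among them. The log2 fold change was 0.61 (SE 0.22). Igfn1 (chromosome 1, 135953578 to 136006342) encodes an immunoglobulin-domain protein known to bind KY and filamin C. It was at 0.731, 3.93, 1.32 and 3.23 FPKM in K320E-skm libraries 1 to 4, against 0.328, 6.79, 2.70 and 1.04 FPKM in wild-type libraries 1 to 4. Wild-type libraries held both its lowest and its highest value, and its log2 fold change was 0.03 (SE 0.52, 95% interval −1.12 to 1.18, limma adjusted p = 0.984).

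Ky and Sorbs2 were chosen for lower levels. Ky (chromosome 9, 102505750 to 102546239), a transglutaminase-like protein that binds filamin C and whose loss causes kyphoscoliosis in mice, was at 11.5, 6.75, 8.20 and 9.41 FPKM in K320E-skm libraries 1 to 4, against 24.4, 11.2, 18.0 and 15.0 FPKM in wild-type libraries 1 to 4. Only K320E-skm 1 and wild-type 2 overlapped. The log2 fold change of Ky was −0.84 (SE 0.22). Sorbs2 (chromosome 8, 45507788 to 45827906), an SH3-domain adaptor at the Z-disc, was at 10.7, 6.98, 7.90 and 10.2 FPKM in K320E-skm libraries 1 to 4, against 19.5, 17.1, 14.3 and 16.8 FPKM in wild-type libraries 1 to 4. Every K320E-skm library lay below every wild-type library, and Sorbs2 was the 1 member of 10 without overlap, in a table where 9.59% of genes did not overlap on the lower side. Sorbs2 averaged 8.96 ± 1.80 FPKM in the 4 K320E-skm libraries and 16.9 ± 2.12 FPKM in the 4 wild-type ones (SD), a log2 fold change of −0.86 (SE 0.15). Exons of Sorbs2 overlap those of Sorbs2os on the opposite strand, which was at 0.212 to 0.551 FPKM in K320E-skm libraries and 0.483 to 0.695 FPKM in wild-type libraries.

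Csrp3 (chromosome 7, 48830398 to 48848033) encodes muscle LIM protein, which binds alpha-actinin and telethonin at the Z-disc. It was at 8.12, 34.8, 24.1 and 41.9 FPKM in K320E-skm libraries 1 to 4, against 9.31, 17.7, 11.7 and 37.8 FPKM in wild-type libraries 1 to 4. The genotypes overlapped, and K320E-skm libraries held the lowest and the highest value. Its log2 fold change was 0.47 (SE 0.51, 95% interval −0.67 to 1.61, limma adjusted p = 0.666). Bag3 (chromosome 7, 128523616 to 128546981), the co-chaperone that sends filamin to autophagy, was at 11.5, 13.7, 15.2 and 17.8 FPKM in K320E-skm libraries 1 to 4, against 17.5, 14.9, 13.2 and 16.5 FPKM in wild-type libraries 1 to 4. Its means of 14.6 ± 2.63 and 15.5 ± 1.91 FPKM differed by less than the spread between libraries, with a log2 fold change of −0.10 (SE 0.15, limma adjusted p = 0.764). The 95% interval of −0.43 to 0.24 makes Bag3 the most narrowly bounded of the 6 genes not chosen for their difference, from 0.74-fold to 1.18-fold.

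Both ankyrin-repeat genes, whose products bind the spring region of titin and shuttle to the nucleus, lie on chromosome 19, Ankrd1 at 36111961 to 36120099 and Ankrd2 at 42036000 to 42045110. Ankrd1 was at 19.5, 116, 20.7 and 58.6 FPKM in K320E-skm libraries 1 to 4, against 16.0, 74.3, 9.57 and 18.1 FPKM in wild-type libraries 1 to 4. Ankrd2 was at 8.38, 56.1, 28.8 and 42.5 FPKM in K320E-skm libraries 1 to 4, against 11.3, 16.8, 19.9 and 31.4 FPKM in wild-type libraries 1 to 4. For Ankrd1, K320E-skm 2 and wild-type 2 stood well above the other libraries, while Ankrd2 was spread more evenly, and the genotypes overlapped in both genes. The log2 fold changes were 0.90 for Ankrd1 (SE 0.67, 95% interval −0.60 to 2.39, limma adjusted p = 0.529) and 0.56 for Ankrd2 (SE 0.51, 95% interval −0.57 to 1.68, limma adjusted p = 0.603). These intervals leave room for a rise of up to 5.25-fold in Ankrd1 and 3.20-fold in Ankrd2 as well as for a decrease. No difference of either gene was detected in this fit of 4 libraries a genotype. At an unadjusted p under 0.05, 0 of the 6 genes not chosen for their difference were called, where 1.07% of tested genes were higher and 13.6% lower. Of the fits that left out 1 library, those with an unadjusted p under 0.05 for these 6 genes are given first, picked for that outcome. Without wild-type 2 the log2 fold change of Ankrd1 was 1.48 (limma unadjusted p = 0.0272, adjusted p = 0.277). Without K320E-skm 1 those of Ankrd2 and Csrp3 were 1.10 (limma unadjusted p = 0.00821, adjusted p = 0.408) and 0.94 (limma unadjusted p = 0.0479, adjusted p = 0.464). Leaving out K320E-skm 2 instead gave 0.40 for Ankrd1, 0.23 for Ankrd2 and 0.28 for Csrp3 (limma unadjusted p = 0.536, 0.658 and 0.623).

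The ratio of Ankrd1 to Ankrd2 within a library does not depend on how libraries are scaled. It was 2.32, 2.07, 0.718 and 1.38 in K320E-skm libraries 1 to 4, against 1.41, 4.42, 0.481 and 0.575 in wild-type libraries 1 to 4. Which of the pair was the more abundant thus varied within each genotype. On the log2 scale the ratio averaged 0.56 ± 0.77 in K320E-skm libraries and 0.20 ± 1.46 in wild-type libraries (SD, n = 4 each, exact two-sided permutation p = 0.686, where 4 against 4 allows no p below 0.0286). The ratio of Xirp1 to Xirp2, which the choice of Xirp1 bears on, was 0.157, 0.248, 0.114 and 0.0525 in K320E-skm libraries 1 to 4, against 0.0697, 0.0655, 0.0751 and 0.0641 in wild-type libraries 1 to 4. The 4 wild-type ratios were close together, and K320E-skm 4 lay below them while the other 3 K320E-skm libraries lay above.

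**Figure D2:**
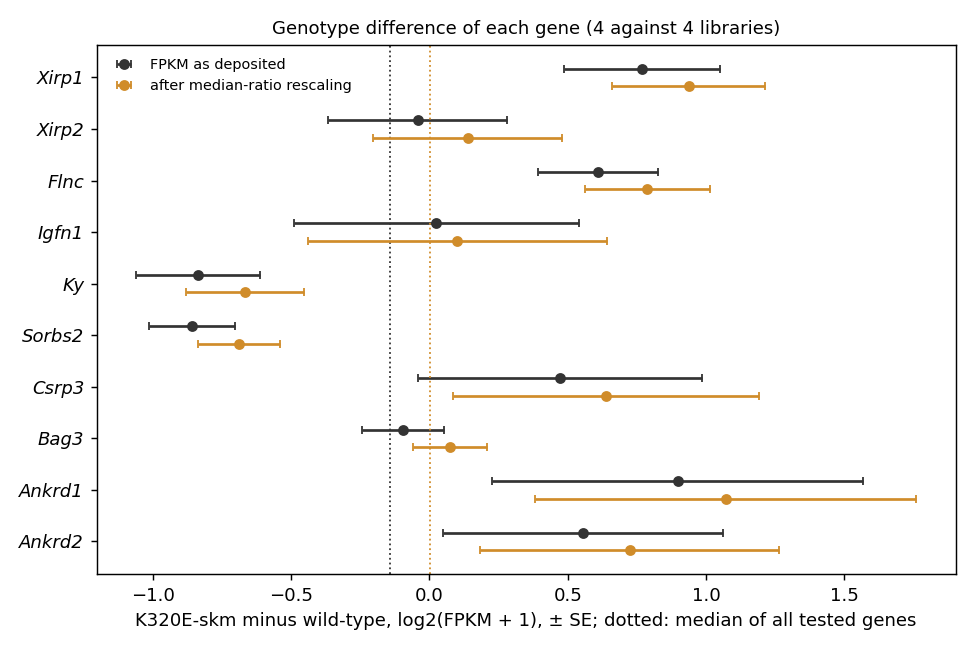
K320E-skm minus wild-type difference of each gene on the scale of log2(FPKM + 1), as deposited and after median-ratio rescaling; bars are the SE of 4 against 4 libraries, and dotted lines are the median of all tested genes. Xirp1 at 0.77 and Flnc at 0.61 lie to the right and Ky at −0.84 and Sorbs2 at −0.86 to the left on both scales, as they were chosen to, and the widest bar is that of Ankrd1.

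The second comparison set male against female labels, with genotype in the model. The choice of Xirp1, Flnc, Sorbs2 and Ky used the genotype and not the sex label. With K320E-skm 4 read by its transcripts, sex was not balanced between the genotypes, so that choice can bear on this comparison too. Mean levels of 8 of the 10 genes were lower in the male-labelled libraries other than K320E-skm 4. Without K320E-skm 4, Csrp3 averaged 9.72 ± 1.84 FPKM in 3 male-labelled and 28.6 ± 9.35 FPKM in 4 female-labelled libraries, and Xirp2 averaged 141 ± 29.4 against 217 ± 44.8 FPKM. Ankrd2 averaged 13.2 ± 5.98 against 33.3 ± 16.5 FPKM and Ankrd1 15.0 ± 5.02 against 57.4 ± 47.1 FPKM. Flnc averaged 52.1 ± 4.16 against 85.4 ± 24.3 FPKM and Xirp1 13.4 ± 3.90 against 24.6 ± 13.4 FPKM. Ky had the opposite direction, at 18.0 ± 6.48 FPKM in male-labelled and 10.3 ± 3.63 FPKM in female-labelled libraries.

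None of these differences passed limma over all genes. Without K320E-skm 4, log2 differences, male minus female, were −1.43 for Csrp3 (95% interval −2.03 to −0.82, limma adjusted p = 0.317), −0.69 for Xirp2 (−1.06 to −0.33, limma adjusted p = 0.503) and −1.20 for Ankrd2 (−2.10 to −0.31, limma adjusted p = 0.701). They were −1.42 for Ankrd1 (limma adjusted p = 0.995), −0.58 for Flnc (0.660), −0.61 for Xirp1 (0.932), −0.89 for Igfn1 (1.00), −0.15 for Bag3 (1.00), 0.18 for Sorbs2 (1.00) and 0.62 for Ky (0.624). Over all genes this fit called 4, 0.038% of those tested, Xist among them. Unadjusted p was under 0.05 for 6 members that were lower in male-labelled libraries, where 1.42% of tested genes were, and for 1 that was higher, Ky, where 3.42% were, or 7 of 10 in all, where 4.84% were. Of the 6 genes not chosen for their genotype difference, 4 were lower at that p and 0 higher. Male-labelled libraries lay below all female-labelled ones without overlap in Csrp3, Xirp2 and Flnc, as in 1.12% of tested genes, and above them in 0 members, as in 2.98%. Labels did not overlap in either direction for 4.1% of genes.

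K320E-skm 4, labelled male with Xist at the level of female-labelled libraries, bears on this comparison directly. Its level lay above every other male-labelled library in 6 of the 6 genes not chosen for their genotype difference, where it did so in 8.17% of all tested genes. It did so too in 2 of the 4 chosen genes, Xirp1 and Flnc, or 8 of the 10 in all. These 2 were chosen for a higher level in K320E-skm libraries, K320E-skm 4 among them, so the choice bears on their place here. In Xirp1 and Bag3 the margin was small, with 17.9 FPKM in K320E-skm 4 against 17.8 FPKM in K320E-skm 1 for Xirp1. It was at 41.9 FPKM for Csrp3, where the other male-labelled libraries had 8.12 to 11.7 FPKM, and at 341 FPKM for Xirp2, where they had 113 to 172 FPKM. With all 8 libraries by label the log2 difference was −0.92 for Csrp3 (95% interval −1.91 to 0.07) and −0.30 for Xirp2 (−1.02 to 0.42), each with a limma adjusted p of 1.00. No gene of the table passed with all 8 libraries, and 2.7% of genes, 3 of the 10 members among them, had an unadjusted p under 0.05. The 3 were Xirp1, Flnc and Ky, all chosen for their genotype difference. Of the 6 members not so chosen, 0 had an unadjusted p under 0.05.

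**Figure D3:**
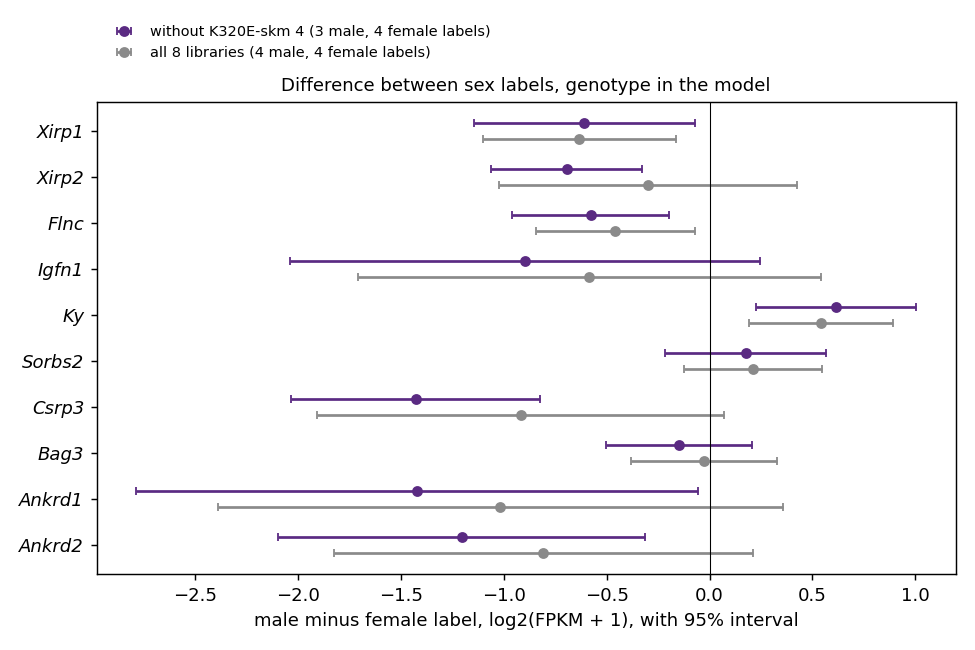
Difference between male and female labels for each gene, male minus female, on the scale of log2(FPKM + 1) with genotype in the model and bars for the 95% interval, without K320E-skm 4 and with all 8 libraries. Without K320E-skm 4 the values run from −1.43 for Csrp3 to 0.62 for Ky.

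The genotype values were also read within sex labels, since 2 libraries of each genotype carry each label. By its transcripts K320E-skm 4 goes with the female-labelled libraries, and in that reading the genotypes were not balanced for sex. In the female-labelled libraries, Flnc was at 110 and 102 FPKM in K320E-skm 2 and 3, against 58.4 and 71.8 FPKM in wild-type 2 and 4. In the male-labelled libraries other than K320E-skm 4, it was at 56.5 FPKM in K320E-skm 1, against 51.7 and 48.2 FPKM in wild-type 1 and 3. These values describe genes chosen for this difference in these libraries, with 1 K320E-skm library on the male side. Xirp1 was at 44.3 and 21.7 FPKM in K320E-skm 2 and 3, against 18.2 and 14.3 FPKM in wild-type 2 and 4, and at 17.8 FPKM in K320E-skm 1, against 12.0 and 10.4 FPKM in wild-type 1 and 3. Ky was at 6.75 and 8.20 FPKM in K320E-skm 2 and 3, against 11.2 and 15.0 FPKM in wild-type 2 and 4. With a term for the sex label and without K320E-skm 4, log2 fold changes of K320E-skm over wild-type were 0.79 for Xirp1 (SE 0.24), 0.49 for Flnc (SE 0.17), −0.89 for Sorbs2 (SE 0.17) and −0.76 for Ky (SE 0.17). In that fit Csrp3 was at −0.04 (SE 0.27, limma adjusted p = 0.959), Ankrd2 at 0.16 (SE 0.39, limma adjusted p = 0.877) and Xirp2 at −0.44 (SE 0.16, limma unadjusted p = 0.0239, adjusted p = 0.411). The main fit, with all libraries and no sex term, had Csrp3 at 0.47, Ankrd2 at 0.56 and Xirp2 at −0.04.

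**Figure D4:**
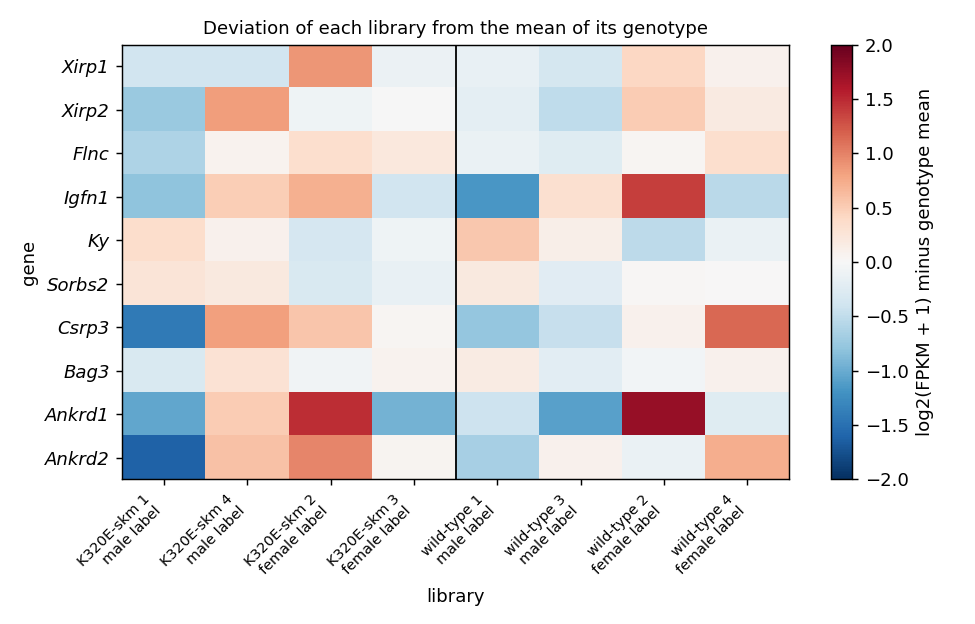
Deviation of each library from the mean of its genotype, log2(FPKM + 1), for the 10 genes in K320E-skm libraries (left of the line) and wild-type libraries (right), each ordered by sex label. K320E-skm 1 is low for Csrp3, Ankrd1, Ankrd2 and Xirp2, and wild-type 2 and K320E-skm 2 are high for Ankrd1.

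Likeness between genes was described by Pearson's r of these deviations from the genotype mean over 8 libraries, which share their scaling and include differences between sex labels, so no p is given. Among the members, Csrp3 and Ankrd2 were closest (r = 0.92, Spearman's rho = 0.83), and Flnc was closest to Csrp3 (r = 0.89, rho = 0.86). Xirp1 and Ankrd1 were each other's closest member (r = 0.78, rho = 0.67), as were Xirp2 and Bag3 (r = 0.76, rho = 0.69) and, more loosely, Ky and Sorbs2 (r = 0.57, rho = 0.55). Closest here means the highest r, and Ky had negative r of larger size. These were −0.80 with Igfn1, −0.74 with Xirp1 and −0.71 with Ankrd1, among others. Of 9590 other protein-coding genes, the one most like Xirp1 was Abra, an actin-binding protein of striated muscle (r = 0.98, rho = 0.95). Abra was at 91.0, 163, 105 and 84.6 FPKM in K320E-skm libraries 1 to 4, against 72.7, 100, 73.8 and 79.8 FPKM in wild-type libraries 1 to 4. Ky was most like Gdap1, a protein of the mitochondrial outer membrane (r = 0.98, rho = 1), and Sorbs2 most like the p53 target Ccng1 (r = 0.97, rho = 0.98). Of the other members, the most like genes were Pde7b for Xirp2, Tmem218 for Flnc, Zfp770 for Csrp3, Cog6 for Ankrd1, Ppox for Bag3 and Ccdc141 for Igfn1, with r from 0.95 to 0.99. These were each the best of 9590 genes over 8 libraries, where high values of r arise readily.

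Other genes of the Z-disc and its surroundings were counted in 6 lists of 137 names, of which 122 were tested. Limma called 0 of the 122 higher and 0 lower over all genes, and at an unadjusted p under 0.05 there were 3 higher and 13 lower, or 2.46% and 10.7% of the list genes, against 1.07% and 13.6% of all tested genes. Their median log2 fold change was −0.12, against −0.14 over all tested genes. The genotypes did not overlap for 7 of them, all lower in K320E-skm muscle, or 5.74% of the list genes, against 9.59% of all tested genes. By structure, the 27 tested Z-disc genes had a median of −0.18. The titin cap gene Tcap was at 978 ± 116 FPKM in K320E-skm libraries and 1099 ± 155 FPKM in wild-type libraries, and the fast-fibre alpha-actinin Actn3 at 802 ± 206 and 1128 ± 39.5 FPKM (SD, n = 4 each), with log2 fold changes of −0.16 (limma adjusted p = 0.648) and −0.53 (limma adjusted p = 0.298).

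The 20 tested filamin and adhesion partners had a median of −0.15. The actin-binding protein gene Nexn was at 45.3 ± 10.2 FPKM in K320E-skm libraries and 72.9 ± 12.5 FPKM in wild-type libraries, a log2 fold change of −0.68 (SE 0.18, limma adjusted p = 0.271), and the sarcoglycan gene Sgca at 72.1 ± 8.06 and 76.0 ± 14.5 FPKM. The list of chaperones and other genes of BAG3-directed autophagy (18 tested) had a median of −0.01. Hspa8, the constitutive Hsp70, was at 315 ± 39.3 and 285 ± 68.8 FPKM, and the small heat shock protein gene Cryab at 320 ± 128 and 247 ± 53.4 FPKM, with limma adjusted p of 0.686 and 0.657. Ligands of titin and the M-band (23 tested) had a median of −0.09. Nebulin (Neb), which lines the thin filament, was at 1073 ± 264 FPKM in K320E-skm libraries and 1299 ± 317 FPKM in wild-type libraries (limma adjusted p = 0.569). The third ankyrin-repeat gene of this family, Ankrd23, was at 754 ± 207 FPKM in K320E-skm libraries and 953 ± 188 FPKM in wild-type libraries (log2 fold change −0.36, SE 0.22, limma adjusted p = 0.450), above Ankrd1 and Ankrd2 in every library. Genes of mechanosensing transcription (20 tested) had a median of −0.08, with Abra at a log2 fold change of 0.40 and Mustn1 at 0.28. Membrane repair genes (14 tested) had a median of −0.02, with Ahnak at −0.23 and Anxa6 at −0.13.

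Between the sex labels without K320E-skm 4, limma called 0 of the 122 genes. At an unadjusted p under 0.05, 17 of them, or 13.9%, were lower in male-labelled libraries, against 1.42% of all tested genes, and 3 were higher, against 3.42% of all tested genes. The male-labelled libraries lay below all female-labelled ones for 10 genes, or 8.20%, against 1.12% of all tested genes, and above them for 2, Fhl3 and Myoz1. The 10 lower genes were Actn2, Nrap, Fhl1, Dmd, Hspb6, Hspb7, Cryab, Mybph, Tead3 and Mustn1, and all 12 are named after their values were seen. With all 8 libraries limma called 0 of the 122 genes, 6 (4.92%) were lower in male-labelled libraries at an unadjusted p under 0.05, against 0.855% of all tested genes, and 2 were higher. The male-labelled libraries then lay below all female-labelled ones for 1 gene. Mybph, a myosin-binding protein, averaged 4.42 ± 1.72 FPKM in 3 male-labelled and 21.9 ± 6.00 FPKM in 4 female-labelled libraries, and was at 36.6 FPKM in K320E-skm 4 (limma adjusted p = 0.084 for the difference without that library). The small heat shock protein gene Hspb7 averaged 32.0 ± 3.89 against 70.5 ± 12.7 FPKM, with 135 FPKM in K320E-skm 4 (limma adjusted p = 0.142 without it). With all 8 libraries the log2 differences were −1.38 for Mybph and −0.59 for Hspb7, each with a limma adjusted p of 1.00.

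Markers of fibre type and of other cell types were summed in each library. In bulk muscle, fewer cells of a type and less RNA per cell cannot be told apart. The summed level of 11 slow-fibre genes, a list that included Myh2 of the oxidative fast fibres, was 108 to 486 FPKM in K320E-skm libraries and 152 to 317 FPKM in wild-type libraries. Between the labels it was 108 to 234 FPKM in the male-labelled libraries without K320E-skm 4 and 184 to 486 FPKM in the female-labelled ones, and 426 FPKM in K320E-skm 4. Myh2 was at 178 ± 127 FPKM in K320E-skm libraries and 119 ± 51.3 FPKM in wild-type libraries (SD, n = 4 each, limma adjusted p = 0.871), and the slow light chain gene Myl3 at 34.1 ± 26.5 and 29.3 ± 13.5 FPKM (limma adjusted p = 0.938). The 12 fast-fibre genes summed to 27771 to 38396 FPKM in K320E-skm libraries and 37403 to 43764 FPKM in wild-type libraries. Myh4 was listed at 0 in 4 libraries, so these sums do not rest on the same genes in every library. The fast troponin genes Tnnt3 and Tnni2 had log2 fold changes of −0.35 (limma adjusted p = 0.382) and −0.27 (limma adjusted p = 0.487). Of the fast-fibre genes 6 were lower in K320E-skm muscle without overlap and none was called by limma, which gave 4 as lower at an unadjusted p under 0.05. Over all tested genes 9.59% were lower without overlap and 13.6% lower at that p. Markers of denervation and regeneration (12 genes) summed to 45.6 to 90.0 FPKM in K320E-skm libraries and 30.1 to 79.6 FPKM in wild-type libraries, with the highest sums in K320E-skm 2 and wild-type 2, the libraries where Ankrd1 was highest. None of the markers of other cell types was listed at 0 in any library. Tendon markers (6 of 6 in the table) summed to 20.1 to 67.8 FPKM in K320E-skm libraries and 15.9 to 140 FPKM in wild-type libraries, and macrophage markers (6 of 6 in the table) to 16.6 to 42.4 and 14.5 to 46.2 FPKM. Nerve markers summed to 12.5 to 17.5 FPKM in K320E-skm libraries and 16.1 to 32.0 FPKM in wild-type libraries, and fibroblast markers to 199 to 303 and 183 to 519 FPKM. Smooth muscle markers summed to 39.5 to 53.3 FPKM in K320E-skm libraries and 51.1 to 82.5 FPKM in wild-type libraries, and endothelial markers to 33.8 to 45.3 and 41.2 to 54.9 FPKM. Erythrocyte markers summed to 133 to 278 FPKM in K320E-skm libraries and 222 to 370 FPKM in wild-type libraries, and adipocyte markers to 114 to 144 and 104 to 262 FPKM. The part of these markers in the values of the Z-disc and stretch genes was not tested.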

How the data were processed

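The authors deposited FPKM, a value for each gene in each of 8 libraries. Cufflinks 2.1.1, TopHat2 2.0.10 and CASAVA are named, with the build mm10, per the submitters' processing notes. Which annotation, strand setting and bias correction they used is not given in the sources. FPKM are relative to all mapped fragments, so abundant RNA in a library lowers its other values. GENCODE M21 (GRCm38) supplied symbols and coordinates for 47864 IDs, and 464 had no match. All 8 columns were matched by name, and no 2 libraries were identical.

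Genes with at least 1 FPKM in at least 4 libraries were tested in limma 3.58.1 (R 4.3.3) on log2(FPKM + 1) values, with a genotype term, empirical Bayes with a trend, two-sided, and Benjamini-Hochberg adjustment over all of them. A fold change on this scale understates the change of low genes. The sex label was a term of a second fit. The fit was tested on simulated data. Single ratios were compared by exact permutation over 70 assignments. Alternatives were another pseudocount and filter, rescaling, quantile normalization, a sex term, a replicate block, robust fits, array weights and leaving out each library. Genes named beside the members were, per list, those past the threshold or otherwise the 2 with the highest mean, and for each member the gene with the highest r, which for Ankrd2 is not reported here. The members, lists and tests were chosen with earlier results of these data known. Figures were drawn with matplotlib 3.10.9 in Python 3.11.15.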

Additional observations from a re-analysis of the deposited data

Results flagged for a closer look

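Among 37 named genes, each looked at in 2 groups of 4 libraries, 5 of 74 groups had a library whose distance to the next exceeded the 95% critical value of Dixon's ratio for 4 values. The ratio was taken on FPKM and not on the log2 scale of the fits. Chance flags about 1 in 20 groups where values are normally distributed, which was not tested for these FPKM. Each flagged value was the highest of its group. Of the members, Xirp1 was at 44.3 FPKM in K320E-skm 2, where the other K320E-skm libraries had 17.8 to 21.7 FPKM, and Ankrd1 was at 74.3 FPKM in wild-type 2, where the other wild-type libraries had 9.57 to 18.1 FPKM. Each of these libraries also stood apart for a gene of the denervation and regeneration list. Myog, a myogenic transcription factor, was at 20.7 FPKM in K320E-skm 2, and the stress gene Gadd45a was at 25.7 FPKM in wild-type 2. Mustn1 was at 103 FPKM in K320E-skm 4. The part of these libraries' state in the member values was not tested.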

How the results depend on the processing

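The log2 fold changes of Xirp1, Flnc, Ky, Sorbs2, Ankrd1 and Ankrd2 kept their direction under all 18 alternatives, and none of the 6 genes not chosen for their difference passed limma under any; the lowest adjusted p was 0.257, for Ankrd1 with the replicate block (unadjusted p = 0.00258). Leaving out 1 library at a time gave 0.47 to 0.91 for Xirp1, 0.50 to 0.81 for Flnc, −1.01 to −0.66 for Ky and −0.94 to −0.76 for Sorbs2. The range was 0.40 to 1.48 for Ankrd1, 0.23 to 1.10 for Ankrd2, 0.20 to 0.94 for Csrp3, −0.32 to 0.21 for Xirp2, −0.19 to 0.00 for Bag3 and −0.36 to 0.49 for Igfn1. Xirp2 turned to 0.14 after median-ratio rescaling, 0.0056 with array weights, 0.21 without K320E-skm 1, 0.13 without wild-type 2 and 0.02 without wild-type 4. Bag3 turned to 0.0754 after median-ratio rescaling, 0.0652 after quantile normalization and 0.0034 without K320E-skm 1. Igfn1 turned to −0.21 and −0.14 without K320E-skm 2 and 4, and to −0.36 and −0.16 without wild-type 1 and 4; it had no value with a filter at 5 FPKM. With the sex term and without K320E-skm 4, chosen after seeing the data, Igfn1 was −0.29 and Csrp3 −0.0402. The cause of these turns was not tested.

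The count of genes called higher was 1 and ran from 1 to 3 when 1 library was left out, and it was 2 with the sex term without K320E-skm 4. The count called lower was 1, with 0 to 1 when 1 library was left out, 2 without a filter, 0 with a filter at 5 FPKM and 0 with robust empirical Bayes. Between sex labels, 0 genes were called in either direction with 8 libraries, 2 in each direction without K320E-skm 4, and 1 in each with rescaling, chosen after seeing the data. Rescaling moved the genes at an unadjusted p under 0.05 between genotypes to 5.19% higher and 4.6% lower, against 1.07% and 13.6% as deposited. The log2 difference of the Ankrd1 to Ankrd2 ratio, 0.37, ran from −0.0491, without wild-type 3, to 1.02 when 1 library was left out.

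Same-numbered libraries deviated together with correlations of 0.156, 0.023, 0.044 and 0.04. The wild-type library most like K320E-skm 1, 2, 3 and 4 was wild-type 1, 2, 3 and 2. The K320E-skm library most like wild-type 1, 2, 3 and 4 was K320E-skm 1, 4, 3 and 4. The main fit did not take the numbers to pair libraries, and whether they do was not tested. With a replicate block limma called 1 gene higher and 1 lower, and the ratio difference was 0.37 (exact sign-flip p = 0.5, where 4 pairs allow no p below 0.125). Without counts or depths, no counting error could be given for low genes such as Igfn1.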
